A study of Mus musculus with 32 samples.

Results

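The cytosolic ribosomal protein genes encode the proteins of the cytoplasmic ribosome. They were taken as every gene symbol made of Rps or Rpl, a number and at most 1 of the letters a, x, y and l, together with Rplp0, Rplp1, Rplp2 and Rpsa. This gave 80 of the 33924 genes in the count table, 32 of the small subunit and 48 of the large subunit. The rule reads gene symbols only, and S6 kinases and pseudogenes were left out. All 80 passed the filter on low counts in each analysis, and 77 had a mean of at least 10 counts in a library of 1000000 (CPM). The other 3 were the paralogs Rpl10l, Rpl39l and Rpl3l.

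RNA was sequenced from bone marrow cells of mice that carried a reversible Jak2V617F allele, the activating Janus kinase mutation of myeloproliferative neoplasms. In all 10 groups the allele had been switched on outside the body with Dre recombinase mRNA, and the cells had then been transplanted into recipients after lethal irradiation. The recipients received vehicle, tamoxifen (which activates Cre and deletes Jak2V617F) for 3 or 7 days, or 7 days of ruxolitinib, which inhibits the kinases JAK1 and JAK2. No group with normal Jak2 was analysed here, so vehicle means that the mutant allele was on. The genotype is given as Jak2v617f for every sample. Neither the driver of Cre nor the age of the mice is stated in the sources used here. LSK cells (lineage negative, Sca1 and Kit positive) include the blood stem cells, while MEP cells are committed to the megakaryocyte and erythroid lineages. Batch A was taken to hold vehicle, tamoxifen day 3 and tamoxifen day 7, with 4, 3 and 4 libraries of LSK and 3, 4 and 3 of MEP cells. Batch C was taken to hold vehicle and ruxolitinib, with 2 and 3 libraries of LSK and 3 and 3 of MEP cells. In the sample titles the letters a and c stand on vehicle libraries only. Column names of vehicle A and tamoxifen libraries begin with D and the day, and those of vehicle C and ruxolitinib libraries do not. Each treatment was compared with the vehicle of its own batch. All vehicle libraries are labelled day 0, so treatment and labelled day cannot be told apart in these comparisons.

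A ribosome holds 1 copy of nearly every ribosomal protein, and the mRNAs of these proteins share a control element. They begin with a tract of pyrimidines at the 5' end (5' TOP), through which mTORC1 signalling sets how much of them is translated. Blood cells, and red cell precursors in particular, are sensitive to the supply of ribosomes. Loss of single ribosomal protein genes causes Diamond-Blackfan anaemia, a failure of red cell production, and loss of RPS14 contributes to the anaemia of the 5q minus syndrome.

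The promoters below belong to some of the members named in the results. Each is shown from 60 bases before to 20 bases from the RefSeq start on, 5′ to 3′, in GRCm38.p6. Capitals mark CTTTCC, a pyrimidine run of the kind found at 5' TOP starts, and CGGAAG on either strand (CTTCCG when read on the other), the core of ETS and GABP sites.
Rps27l, chr9:66946026-66946105, plus strand: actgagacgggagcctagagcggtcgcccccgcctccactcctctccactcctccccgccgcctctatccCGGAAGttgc
Rps28, chr17:33824543-33824622, minus strand: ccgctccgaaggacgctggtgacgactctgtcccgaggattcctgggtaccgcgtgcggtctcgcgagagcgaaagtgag
Rps7, chr12:28635934-28636013, minus strand: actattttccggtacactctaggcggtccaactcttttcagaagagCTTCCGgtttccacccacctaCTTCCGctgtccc
Rpl38, chr11:114668520-114668599, plus strand: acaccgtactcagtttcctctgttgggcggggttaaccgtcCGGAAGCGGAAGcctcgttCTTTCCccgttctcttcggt
Rpl13, chr8:123102290-123102369, plus strand: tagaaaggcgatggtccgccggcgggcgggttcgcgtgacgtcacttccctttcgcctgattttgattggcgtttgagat
Rps2, chr17:24720003-24720082, plus strand: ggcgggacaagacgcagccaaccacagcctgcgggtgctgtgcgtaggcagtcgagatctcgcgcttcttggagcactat

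The RefSeq promoter table matched 59 of the 80 genes, with 71 start sites. CTTTCC lay on the transcribed strand within 20 bases either side of 15.5% of the members' starts, against 1.95% of all 32851 starts in the table. CGGAAG lay on either strand of the 300 bases around 60.6% of the members' starts and 16.9% of all starts. Rpl38 held both motifs in the 80 bases shown and Rps7 held CGGAAG at 2 places. The windows of Rpl13, Rps2 and Rps28 held neither, and the windows of Rps19 and Rplp0, which are not shown, held neither as well. A match describes the letters only and says nothing about binding.

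Libraries held 11.2 to 55.5 M counts (M, 1000000). LSK marker genes (9 genes, Ly6a and Flt3 among them) summed to 856.9 to 3240.7 CPM in LSK vehicle A and 44.8 to 49.2 in MEP vehicle A. MEP and erythroid markers (8 genes, Gata1 and Epor among them) summed to 428 to 1153 and 6536 to 11406 CPM. Each sort was thus the higher of the pair in its own markers. LSK vehicle A also held B and plasma cell markers (4 genes) at 134.9 to 5914 CPM. These summed to 19.1 to 149 CPM at LSK day 3 and 19.2 to 201 CPM at LSK day 7. MEP and erythroid markers summed to 1095 to 2793 CPM at LSK day 3. The part of other cells in the LSK values was not tested. Gene counts do not separate the mutant from the normal Jak2 allele, and Jak2 was not called in any comparison. It stood at 17.6 to 31.5 CPM in LSK vehicle A and at 14.3 to 18.2 at LSK day 7, and at 14.4 to 17.7 and 11.8 to 25.0 CPM in the same MEP groups. One library stood apart from its group in what follows, the LSK library labelled tamoxifen day 7 replicate 4, so LSK day 7 medians and counts of calls are given with and without it. It was set apart by its values in the members, so calls made without it are a description and not a test. The labels number animals and do not name litters or sorting days, so p-values measure the spread between these libraries. Every animal number of vehicle C (12 and 18 in LSK, 12, 32 and 33 in MEP cells) also occurs in vehicle A of the same cell type. By the labels, vehicle C thus adds no new animal. Number 18 occurs in vehicle and at day 7.

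Ribosomal protein genes held a larger share of the counts in MEP than in LSK cells under vehicle A. In LSK vehicle A, replicates 1 to 4 gave 3.11, 3.54, 2.67 and 3.19% of all counts, and in MEP vehicle A replicates 1 to 3 gave 4.41, 5.86 and 5.32%. The groups did not overlap. In vehicle C the LSK libraries gave 3.44 and 3.99% and the MEP libraries 4.28, 5.83 and 3.79%, which overlapped. In bulk samples such as these, fewer cells of a type and less RNA per cell cannot be told apart.

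**Figure D1:**
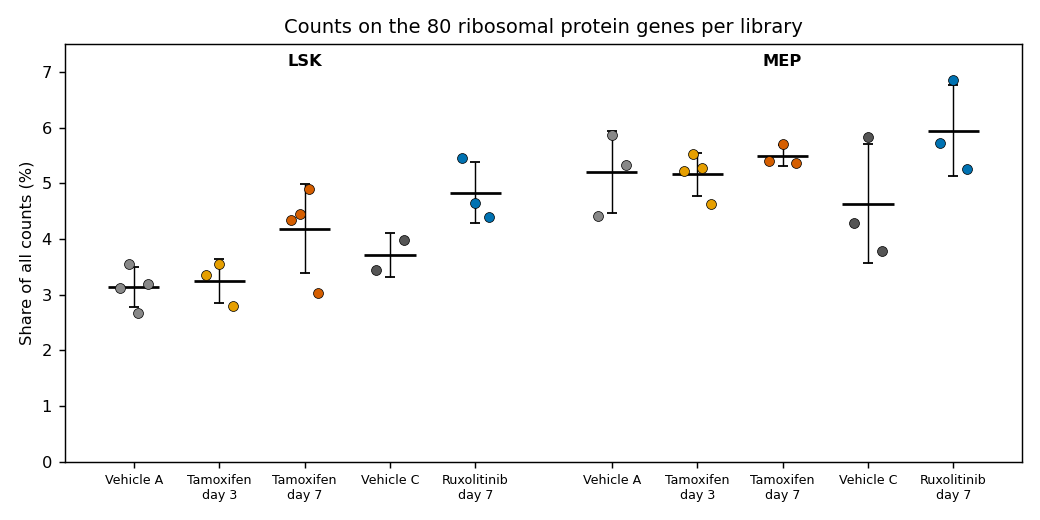
Share of all counts in percent (vertical axis, from 0) that fell on the 80 ribosomal protein genes, for each library (points) by group, with the mean (bar) and SD (whiskers), LSK at the left and MEP at the right. The 4 LSK vehicle A libraries lie below the 3 MEP vehicle A libraries, and LSK tamoxifen day 7 has 3 libraries at 4.35 to 4.90% and 1 at 3.04%.

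Gene by gene, 71 of the 80 were higher in MEP than in LSK cells in vehicle A and 0 were lower (edgeR's quasi-likelihood test, adjusted p below 0.05 over 28378 genes). Over all genes tested, 17.4% were called in either direction and 8.7% higher, and among expressed genes (mean CPM of at least 10) 24.7% were higher. The median log2 difference was 1.19 over the members and -0.27 over all genes tested. It was 1.19 for the 77 expressed members and 0.19 for all expressed genes. Both subunits took part, with 29 of 32 small subunit and 42 of 48 large subunit genes called. For 67 members each MEP library lay above each LSK library, against 10.6% of all genes tested and 27.7% of expressed genes. Leaving out 1 library at a time gave 51 called members (without MEP vehicle A replicate 2) to 75 (without LSK vehicle A replicate 2).

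The largest difference was that of Rps27l, a paralog of Rps27 that is known as a p53 target (chr9:66946086-66949516 in GENCODE M21 on mm10, plus strand). Its levels in LSK vehicle A were 119.5, 161.1, 124.4 and 90.7 CPM, and in MEP vehicle A 702.6, 406.8 and 384.1 CPM. The lowest MEP library was more than 2-fold above the highest LSK library, and the log2 difference was 2.01 ± 0.30 (SE, adjusted p = 7.2e-06, edgeR). Rps21, a small subunit protein, stood at 37.2, 63.6, 55.1 and 41.8 CPM in LSK and at 142.5, 224.7 and 182.1 CPM in MEP cells. The groups did not overlap (log2 difference 1.89 ± 0.31, SE, adjusted p = 3.02e-05, edgeR). Rpl23a, a large subunit protein near the exit of the peptide tunnel, was counted at a low level, 3.0, 5.8, 6.4 and 5.0 CPM against 15.3, 22.0 and 18.6 CPM. Its MEP libraries all lay above its LSK libraries, with a log2 difference of 1.89 ± 0.40 (SE, adjusted p = 0.000737, edgeR).

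The next members in size were 2 small subunit genes. Rps28 stood at 79.4, 174.2, 125.0 and 86.6 CPM in LSK and at 351.0, 449.6 and 367.4 CPM in MEP cells, and its log2 difference was 1.74 (adjusted p = 0.000221, edgeR). Rps26, which lies at the mRNA exit channel and is mutated in some Diamond-Blackfan patients, stood at 98.8, 197.2, 116.9 and 106.8 against 427.2, 487.3 and 365.8 CPM. Its log2 difference was 1.72 (adjusted p = 0.000142, edgeR), and neither gene overlapped between the groups.

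The mRNAs of all 3 proteins of the P stalk, which recruits elongation factors to the large subunit, were higher in MEP cells. Rplp0, the base of the stalk, gave 1271.5, 2151.5, 798.7 and 1114.4 CPM in LSK and 3977.6, 3406.2 and 2697.8 CPM in MEP cells. No library overlapped, and the log2 difference was 1.33 ± 0.31 (SE, adjusted p = 0.00208, edgeR). Rplp1 and Rplp2 differed by 1.61 (adjusted p = 0.000245) and 1.45 (adjusted p = 0.000541). Rpsa, the small subunit protein also known as a laminin receptor, differed by 1.07 (adjusted p = 0.0111). Rps6, the substrate of the S6 kinases, differed by 0.86 (adjusted p = 0.0466), a call that was lost with the replicate number as a block (log2 difference 0.74).

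Of the 9 genes linked to Diamond-Blackfan anaemia in the list used here, Rps7, Rpl5, Rpl11 and Rps26 among them, 8 were higher in MEP cells, with a median log2 difference of 1.21. That is close to all members, with 71 of 80 higher and a median of 1.19. The exception was Rps19, the gene most often mutated in that disease, with a log2 difference of 0.79 (adjusted p = 0.0838). It passed with 5 of the alternatives, among them DESeq2 and expressed genes only. The 8 other genes that were not called included the paralogs Rpl10l, Rpl39l and Rpl3l, and Rpl13, Rps2, Rpl3 and Rps3a. Rpl3 and Rps3a had log2 differences of 0.75 and 0.77 (adjusted p = 0.0825 and 0.0776).

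Rpl13 and Rps2 departed from the other abundant members. Rpl13, a large subunit protein (chr8:123102350-123105244, plus strand), gave 457.4, 1342.4, 489.4 and 610.8 CPM in LSK and 352.5, 1113.5 and 745.2 CPM in MEP cells. The groups overlapped fully, and the log2 difference was 0.02 ± 0.57 (SE, adjusted p = 0.988, edgeR). Rps2, a small subunit protein at the mRNA entry channel (chr17:24718116-24721929, plus strand), gave 194.6, 1399.3, 486.9 and 518.5 CPM in LSK and 349.3, 695.1 and 434.7 CPM in MEP cells. LSK replicate 2 was the highest library of both genes, and the log2 difference of Rps2 was -0.40 ± 0.53 (SE, adjusted p = 0.734, edgeR). Without that library it was 0.30.

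Vehicle C, with 2 LSK and 3 MEP libraries, had higher values in MEP cells in 77 of 80 members. Of these, 8 were called higher and 0 members were called lower, where 16.6% of all genes tested were called and 8.09% were higher. Among expressed genes 22.8% were higher, a larger share than the 8 of 80. The 8 included Rpl23a, Rpl29, Rpl4, Rpl7a, Rplp0, Rps21 and Rps27l, and the median over the members was 0.78. All genes tested had a median of -0.21 and expressed genes one of 0.38. Without LSK replicate 1 the members' median was 0.48. Rps27l gave 177.1 and 184.7 CPM in LSK and 697.3, 426.8 and 515.5 CPM in MEP cells (log2 difference 1.60 ± 0.38, SE, adjusted p = 0.00252, edgeR). Rpl7a, a large subunit protein, gave 269.9 and 366.0 against 749.6, 788.2 and 816.4 CPM (log2 difference 1.30 ± 0.34, SE, adjusted p = 0.00632, edgeR). Both groups of MEP libraries lay above the LSK libraries. The count fell to 1 without LSK replicate 1 and to 0 when the fit held the compared groups only, and it was 29 with DESeq2 and 34 with the replicate number as a block.

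**Figure D2:**
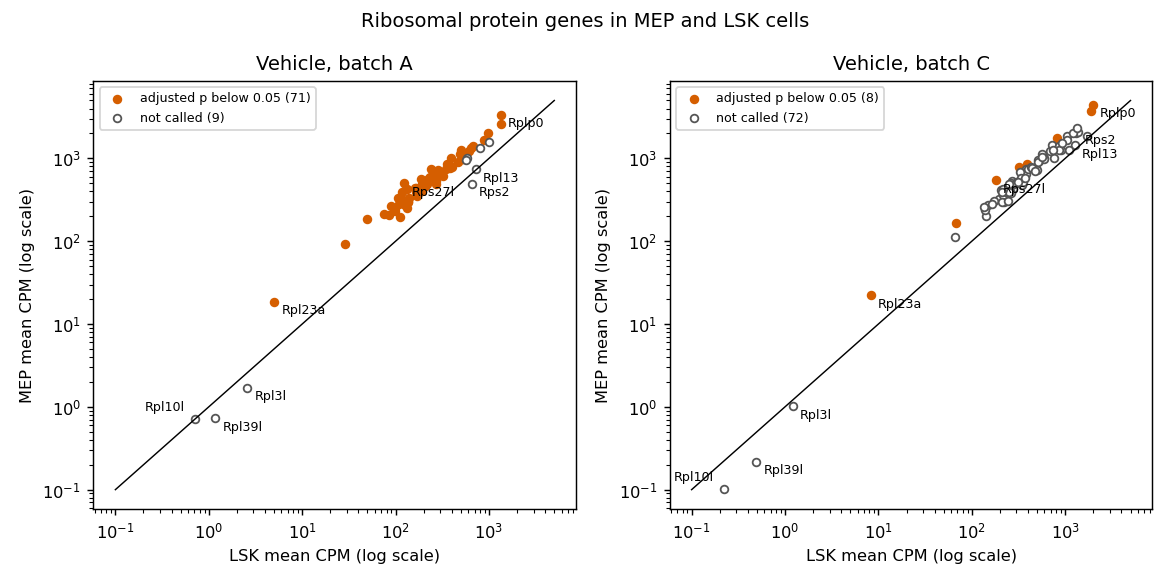
Mean CPM of each of the 80 genes in LSK (horizontal, log scale) and MEP cells (vertical, log scale) under vehicle, batch A at the left and batch C at the right, with the line of equal levels. Filled points are the 71 and 8 genes called higher in MEP cells, and Rpl13 and Rps2 lie on or under the line in batch A.

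Where the labels give the same animal number for an LSK and a MEP library, the 2 can be set side by side. Animal 12 under vehicle had 76 of the 77 expressed members higher in its MEP library in batch A and 76 in batch C, with median log2 differences of 1.31 and 0.99. Animals 25 and 29 at tamoxifen day 3 had 77 each, with medians of 0.93 and 1.03. At day 7 the pairs differed among themselves, with 72 members higher in animal 15 (median 0.23), 24 in animal 18 (median -0.07) and 75 in animal 7 (median 1.08). These counts and medians use scaled totals (TMM), and none was computed for all expressed genes. On raw totals the members' share was higher in the MEP library of every pair. At day 7 it was 4.35% in LSK and 5.41% in MEP cells for animal 15, and 4.44 and 5.71% for animal 18. For animal 7 it was 3.04 and 5.36%. The LSK library of animal 7 is replicate 4, the library that stood apart.

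Within the set the levels spread widely. On the scale of CPM per kilobase of transcript, averaged over all 32 libraries, Rps18 (2321), Rplp0 (2077) and Rps14 (1771) were highest. The lowest of the 77 expressed members were Rpl23a (27.3) and Rpl35 (93.3). Counts of genes with near-identical pseudogenes are uncertain, since no source used here says how reads with several alignments were treated. The table holds 163 ribosomal pseudogenes, which took 0.019 to 0.067% of the counts of a library. The members are spread over the genome, with 14 on chromosome 7, 7 each on chromosomes 9, 11 and 17, and 4 on chromosome X. Their transcripts are short, with a median of 768 bases against 2874 for expressed genes, at a GC content of 51.0% against 50%.

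Under ruxolitinib, 35 of the 80 ribosomal protein genes rose in MEP cells and 2 fell against vehicle C. Of all 25274 genes tested, 42% were called, 3.43% higher and 38.5% lower. Among expressed genes, to which 77 members belong, 7.36% were higher and 6.71% lower. The median log2 change was 0.61 over the members, -1.07 over all genes tested and 0.11 over expressed genes. All 77 expressed members lay above the median of the expressed genes. Their own median exceeded it by 0.53, by 0.49 to 0.54 under the other scalings, and by 0.41 with the vehicles of both batches pooled. In 16 members each ruxolitinib library lay above each vehicle library, against 5.25% of all genes tested and 11.0% of expressed genes. The call was made for 16 of 32 small subunit and 19 of 48 large subunit genes.

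The number of calls moved with the scaling and with single libraries. With RLE factors 71 members were higher and 2 lower, with DESeq2 72 and 3, and in a fit of expressed genes only 18 and 0. Without ruxolitinib replicate 2 there were 4 calls, without ruxolitinib replicate 3 there were 65, and without vehicle C replicate 1 there were 10. The summed share of counts was 4.28, 5.83 and 3.79% in vehicle C and 5.72, 6.85 and 5.25% under ruxolitinib, so these groups overlapped on raw totals. The ruxolitinib libraries also held fewer detected genes, 24709, 23850 and 18876 against 29285, 30449 and 27855 in vehicle C. Their TMM scaling factors were 0.657, 0.636 and 0.846. MEP and erythroid markers summed to 16077 to 18552 CPM under ruxolitinib and 11573 to 15660 in vehicle C, with 2 of 8 called higher and 1 lower. LSK markers summed to 122 to 226 against 20.4 to 45.8 CPM, with 4 of 9 higher. Megakaryocyte markers summed to 260 to 376 against 38.7 to 81.9 CPM (2 of 3 tested higher), and granulocyte and monocyte markers to 67.1 to 254 against 2.7 to 10.1 CPM (4 of 6 higher, 1 lower). None of these 4 lists overlapped between the groups, and no marker in them was at 0 in all libraries of a group. The part of these differences in the result was not tested.

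Among the small subunit genes, Rps2 had the largest rise. It stood at 802.3, 1707.4 and 2427.3 CPM in vehicle C and at 3826.4, 4760.8 and 2336.5 CPM under ruxolitinib. Replicate 3 of ruxolitinib lay within the vehicle range, and the log2 change was 1.15 ± 0.42 (SE, adjusted p = 0.0309, edgeR). Rps7, one of the Diamond-Blackfan genes, gave 313.1, 614.3 and 474.0 CPM against 854.8, 1126.6 and 690.9 CPM. Here the groups did not overlap, and the log2 change was 0.93 ± 0.28 (SE, adjusted p = 0.00985, edgeR). Rps14, the 5q minus gene, gave 847.9, 1392.0 and 870.2 CPM against 1964.5, 2550.2 and 1377.9 CPM. It changed by 0.92 ± 0.28 (SE, adjusted p = 0.0109, edgeR), with the third ruxolitinib library just under the highest vehicle library.

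Among the large subunit genes, Rpl34 gave 397.5, 571.9 and 360.3 CPM in vehicle C and 811.4, 1061.3 and 574.2 CPM under ruxolitinib. The groups were separate by a narrow margin, and the log2 change was 0.88 ± 0.27 (SE, adjusted p = 0.0118, edgeR). Rpl38, known for its part in the translation of Hox mRNAs, gave 218.6, 343.3 and 148.2 CPM against 444.5, 562.6 and 289.9 CPM. It changed by 0.87 ± 0.31 (SE, adjusted p = 0.0284, edgeR), with replicate 3 inside the vehicle range. In all 5 genes ruxolitinib replicate 3 was the lowest and replicate 2 the highest of the 3 treated libraries.

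The Diamond-Blackfan list had 6 of 9 genes higher under ruxolitinib and 0 lower, with a median log2 change of 0.64. All members had 35 of 80 higher and a median of 0.61. Besides Rps7 these included Rpl35a (0.76), Rps10 (0.69), Rpl11 (0.64) and Rps24 (0.61), with adjusted p of 0.0179, 0.0326, 0.046 and 0.0449 in edgeR. Rpl11, which with Rpl5 binds 5S rRNA and can bind Mdm2, gave 307.9, 444.8 and 303.2 CPM against 550.7, 702.2 and 396.7 CPM. Rps19, Rpl5 and Rps26 had log2 changes of 0.64, 0.55 and 0.51 and did not pass (adjusted p = 0.0638, 0.0681 and 0.154).

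The P stalk genes were not called. Rplp0 gave 3671.0, 4067.3 and 3161.6 CPM in vehicle C and 5001.6, 5851.3 and 3229.8 CPM under ruxolitinib, with replicate 3 in the vehicle range and a log2 change of 0.37 ± 0.27 (SE, adjusted p = 0.284, edgeR). Rplp1 and Rplp2 had log2 changes of 0.54 and 0.56 (adjusted p = 0.131 and 0.123). Rps6 (0.66, adjusted p = 0.0561) and Rpsa (0.44, adjusted p = 0.194) did not pass either. Rps27a, which is made as a fusion with ubiquitin, rose by 0.78 (adjusted p = 0.0174), and Rpl22 by 0.56 (adjusted p = 0.0481). Rps27l gave 587.3, 389.3 and 357.5 CPM against 522.1, 631.0 and 458.6 CPM, an overlap, with a log2 change of 0.27 ± 0.28 (SE, adjusted p = 0.445, edgeR).

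The 2 members that fell under ruxolitinib were paralogs with few counts. Of all genes tested 38.5% were called lower, beside 6.71% of expressed genes, to which these paralogs do not belong. No share was computed for genes with a mean CPM below 10, so the 2 calls are not set apart from such genes. Rpl39l, known mainly from testis, had 16 counts over the 3 vehicle C libraries and 0 over the 3 ruxolitinib libraries. With 3 counts as the limit for the ruxolitinib group and the 16 vehicle counts taken as exact, it was at least 5.89-fold lower on the scaled totals. The spread of the vehicle libraries (9, 4 and 3 counts) is not part of that limit. The edgeR test gave an adjusted p of 0.00437. Rpl3l, the muscle paralog of Rpl3, had 77 and 18 counts (log2 change -2.22 ± 0.75, SE, adjusted p = 0.0201, edgeR). Rpl10l, a testis paralog of Rpl10, had 8 and 0 counts and was not called. All 3 had values on the side of the median over all genes tested, and the 77 expressed members had values on the other side of 0.

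**Figure D3:**
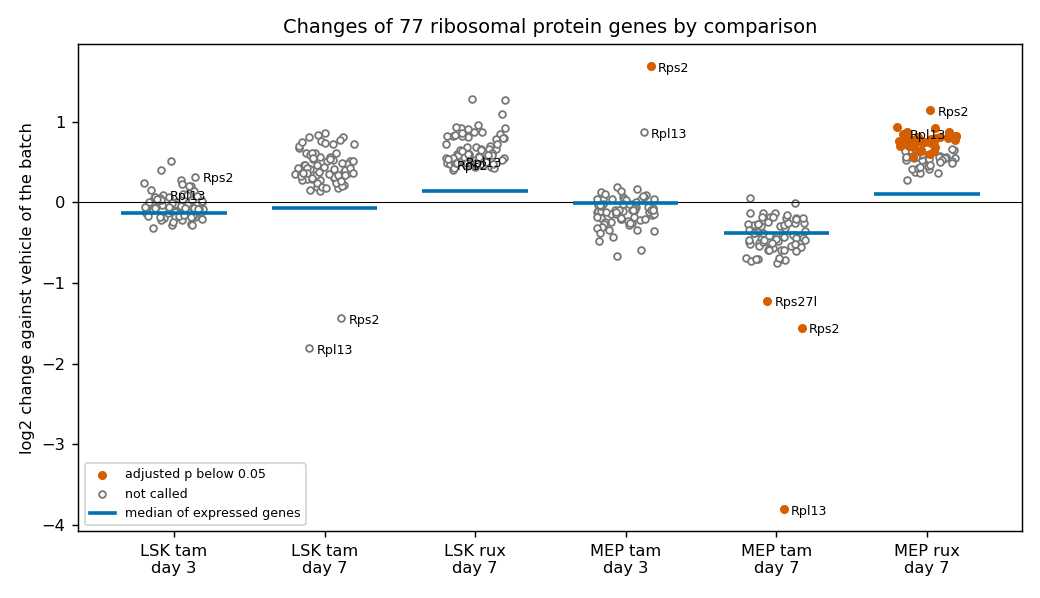
Log2 change against the vehicle of the batch (vertical) for the 77 expressed ribosomal protein genes in 6 comparisons, with called genes filled and the median of all expressed genes as a blue line. Under ruxolitinib in MEP cells all 77 lie above the line, and at tamoxifen day 7 in MEP cells the members straddle it with Rpl13, Rps2 and Rps27l below.

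In LSK cells under ruxolitinib the members had a similar median, 0.59 on the log2 scale, but 0 of 80 were called by edgeR, where 0.0223% of all genes were called. DESeq2 also called 0, and 15 had an unadjusted p below 0.05 (4.45% of expressed genes and 8.92% of all genes), the smallest adjusted p being 0.539. The median was 0.99 without vehicle C replicate 2, 0.90 without ruxolitinib replicate 3 and 0.32 without ruxolitinib replicate 1. All 77 expressed members lay above the median of expressed genes, by 0.44 at their own median. In 26 members the ruxolitinib libraries were all above both vehicle libraries (8.46% of all genes and 14.0% of expressed genes). Rpl35, which had one of the lowest levels per kilobase, gave 49.3 and 98.6 CPM in vehicle C and 246.3, 143.6 and 151.4 CPM under ruxolitinib. The groups were separate, with a log2 change of 1.29 ± 0.49 that did not pass. Rps21 had a log2 change of 0.96 ± 0.37 and Rps19 one of 0.65. The summed share was 3.44 and 3.99% in vehicle C and 5.45, 4.64 and 4.40% under ruxolitinib. With the vehicles of both batches pooled, 30 members were called. Without treatment, members of the same LSK animal were higher in batch C than in batch A by a median of 0.45 (animal 12) and 0.42 (animal 18), so in the pooled result batch and treatment cannot be told apart. The difference between the responses of MEP and LSK cells to ruxolitinib had a median of 0.20 and 0 calls among the members (0.292% of all genes called, 0 members with an unadjusted p below 0.05, 0 with DESeq2). The median rested on single libraries and ran from -0.18 without LSK vehicle C replicate 2 to 0.51 without LSK vehicle C replicate 1. It was 0.07 without LSK ruxolitinib replicate 3 and 0.13 without MEP vehicle C replicate 1. It was 0.39 without LSK ruxolitinib replicate 1, and 0.50 and 0.41 without MEP ruxolitinib replicates 1 and 3.

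At tamoxifen day 3 a single member was called in MEP cells, Rps2. It was higher, and 0 members were lower, where 1.21% of all genes were called and 0.886% were called higher. Among expressed genes 3.35% were called and 2.52% were higher, larger shares than the 1 of 80. Rps2 stood at 310.8, 645.5 and 415.4 CPM in vehicle A and at 545.8, 2511.8, 1243.6 and 1606.8 CPM at day 3. Replicate 1 of day 3 lay in the vehicle range, and the other 3 libraries lay above it. The log2 change was 1.69 ± 0.41 (SE, adjusted p = 0.0355, edgeR). The call was lost with the replicate number as a block, with voom, with pooled vehicles, and without vehicle A replicate 1 or 3 or day 3 replicate 2, 3 or 4. Rpl13 stood at 313.6, 1034.1 and 712.1 CPM in vehicle A and at 1389.6, 1336.2, 1205.5 and 1086.5 CPM at day 3. Its day 3 libraries all lay above vehicle, with a log2 change of 0.87 ± 0.32 that did not pass (adjusted p = 0.327, edgeR). The median over the members was -0.11, and its sign turned without vehicle A replicate 2 or day 3 replicate 4 (0.03 for each). It was -0.17 without vehicle A replicate 1 and without day 3 replicate 1, and -0.19 without day 3 replicate 3.

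By day 7 the same 2 genes were low in MEP cells. Rpl13 stood at 50.9, 34.7 and 61.5 CPM, so the highest day 7 library lay far below the lowest vehicle library, 313.6 CPM. Its log2 change was -3.81 ± 0.38 against vehicle A (SE, adjusted p = 8.13e-08, edgeR) and -4.68 ± 0.38 against day 3 (adjusted p = 2.72e-09). Rps2 stood at 169.0, 127.3 and 169.9 CPM, below its vehicle libraries as well. Its log2 change was -1.56 ± 0.42 against vehicle A (SE, adjusted p = 0.0192, edgeR) and -3.25 ± 0.44 against day 3 (adjusted p = 6.43e-06). In a fit of expressed genes only, its change against vehicle was -1.18 and no longer passed.

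Rps27l was the third member called. It gave 625.1, 377.8 and 367.1 CPM in vehicle A, 384.9, 263.4, 297.3 and 206.2 CPM at day 3, and 181.9, 161.5 and 244.3 CPM at day 7. The day 7 libraries lay below all vehicle libraries and the day 3 libraries lay between, with overlap on both sides. The log2 change at day 7 was -1.22 ± 0.28 (SE, adjusted p = 0.00484, edgeR). The gene that was most raised in MEP over LSK cells under vehicle was among the 3 that fell at day 7, and both comparisons share the MEP vehicle A libraries.

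The other 77 members were not called at MEP day 7. The 3 called lower and 0 higher stood beside 8.42% of all genes tested, 7.03% of them lower, and 20.7% of expressed genes lower. The members' median log2 change was -0.43, against 0.21 over all genes tested and -0.38 over expressed genes. The 77 expressed members differed from expressed genes by a median of -0.06 (-0.07 to -0.06 over the scalings, and 0.05 with pooled vehicles). Single libraries moved this difference. Of the 77, 39.0% lay above the median of expressed genes, 15.6% without vehicle A replicate 1 and 61.0% without vehicle A replicate 2. In 40 members each day 7 library lay below each vehicle library, beside 14.7% of all genes and 39.9% of expressed genes. Rplp0, an example of the majority, gave 3539.2, 3163.4 and 2578.2 CPM in vehicle A, 3158.4, 3186.0, 3186.2 and 2384.3 CPM at day 3, and 2506.3, 1587.4 and 2536.0 CPM at day 7. All day 7 libraries of Rplp0 were below vehicle, by a margin under the spread within the groups. On raw totals the summed share was 4.41, 5.86 and 5.32% in vehicle A, 5.22, 5.52, 5.27 and 4.62% at day 3, and 5.41, 5.71 and 5.36% at day 7. The 3 groups overlapped, and the sign of the small shift depends on the scaling, since TMM factors at day 7 were 1.38, 1.92 and 1.24. Day 7 against day 3 called 2 members, Rpl13 and Rps2, both lower, where 7.47% of all genes were called and 6.43% were lower. Among expressed genes 18.6% were lower in that comparison, a larger share than the 2 of 80. Pooling the vehicles gave 21 calls at day 7.

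Markers of other cell types also differed at MEP day 7. Megakaryocyte markers summed to 221 to 355 CPM against 54.1 to 81.6 in vehicle A, with 3 of 3 tested called higher. LSK markers summed to 98.7 to 117 against 44.8 to 49.2 CPM (3 of 9 higher), granulocyte and monocyte markers to 53.0 to 80.8 against 9.8 to 10.4 CPM (4 of 6 higher), and B and plasma cell markers to 28.5 to 49.1 against 6.2 to 7.1 CPM (1 of 4 higher). In these 4 lists the groups did not overlap and no marker was at 0 in all libraries of a group. MEP and erythroid markers summed to 5813 to 8020 against 6536 to 11406 CPM, with 4 of 8 called lower. Their part in the members' values was not tested.

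**Figure D4:**
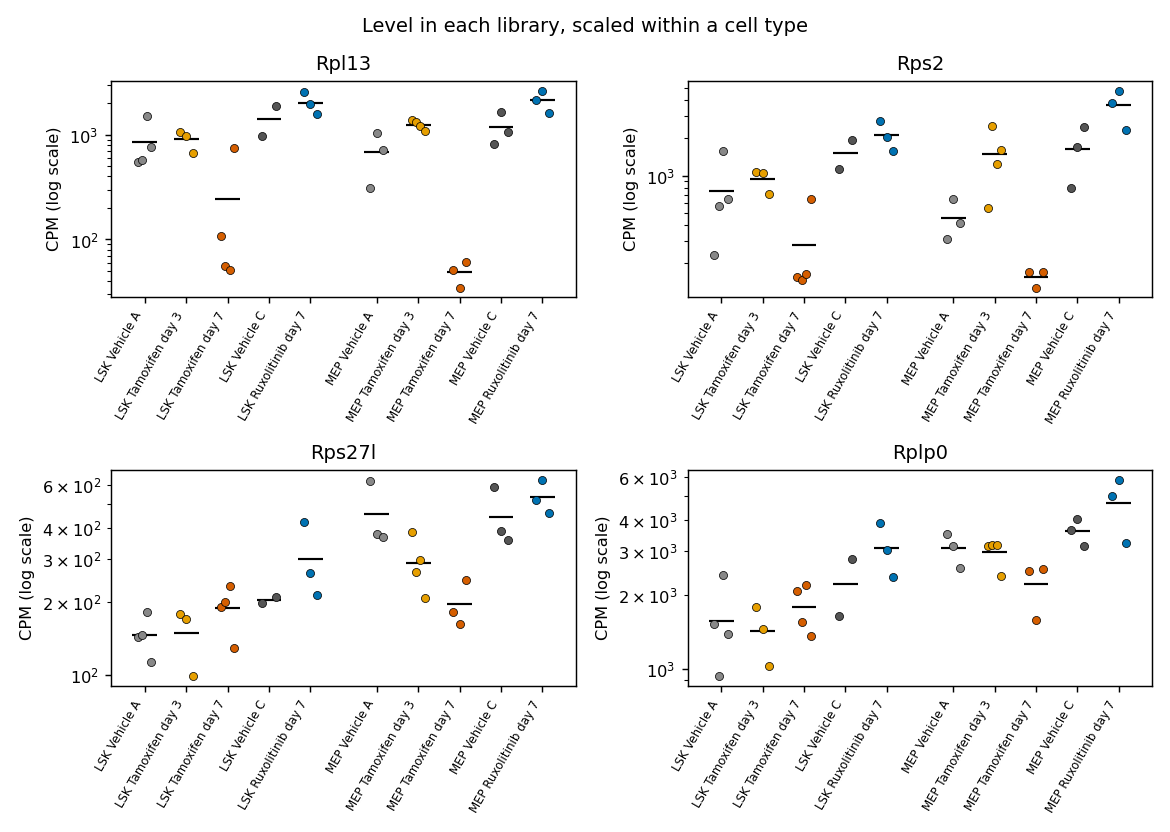
CPM in each library (points, log scale, scaled within a cell type) and group means (bars) for Rpl13, Rps2, Rps27l and Rplp0. Rpl13 and Rps2 are low in the 3 MEP and in 3 of the 4 LSK libraries of tamoxifen day 7, and LSK replicate 4 stands at 753.5 and 650.0 CPM.

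LSK cells showed the same pair of genes at day 7, in 3 of 4 libraries. Rpl13 gave 548.9, 1507.2, 573.8 and 761.2 CPM in vehicle A, 1071.8, 967.3 and 676.3 CPM at day 3, and 107.2, 55.8, 50.9 and 753.5 CPM at day 7. Rps2 gave 233.6, 1571.1, 570.8 and 646.2 CPM in vehicle A, 1063.2, 1053.6 and 711.4 CPM at day 3, and 155.4, 145.7, 163.6 and 650.0 CPM at day 7. In both genes replicates 1 to 3 lay below all vehicle libraries and replicate 4 lay inside the vehicle range. With all 4 libraries neither passed (log2 change -1.81 ± 0.66 for Rpl13 and -1.44 ± 0.53 for Rps2, SE, adjusted p = 0.318 for both, edgeR). Without replicate 4, the log2 change was -3.57 for Rpl13 (adjusted p = 0.0001, edgeR) and -2.29 for Rps2 (adjusted p = 0.00853, edgeR). Against day 3 these changes were -3.67 and -2.60 without it. Replicate 4 was set apart by its values in these same genes, so these p-values are no independent support for a fall. The MEP library of the same animal number, 7, had Rpl13 at 61.5 and Rps2 at 169.9 CPM, like the other MEP libraries of day 7.

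Most other members had higher values at LSK day 7 than in vehicle, again with replicate 4 apart. Rps19 gave 532.3, 1086.1, 528.0 and 589.6 CPM in vehicle A and 1091.8, 1065.7, 1117.8 and 627.1 CPM at day 7, with a log2 change of 0.51, and of 0.67 without replicate 4 (adjusted p = 0.506, edgeR). Rps21 gave 44.6, 71.5, 64.6 and 52.1 CPM against 102.3, 116.0, 126.9 and 52.5 CPM, with a log2 change of 0.77 (adjusted p = 0.319, edgeR). Without replicate 4 the change of Rps21 was 0.98 and passed (adjusted p = 0.0429). Replicate 4 was at vehicle level for both genes, while vehicle replicate 2 was the highest vehicle library of both. With all libraries, 0 of 80 members were called at day 7 (0.104% of all genes called, 0 members with DESeq2). An unadjusted p below 0.05 was found for 16 members, beside 8.93% of all genes and 17.2% of expressed genes. The median was 0.38, and 97.4% of the 77 expressed members lay above the median of expressed genes. Without replicate 4 the median was 0.52 and the share above was again 97.4%, and Rps21 was called higher and Rpl13 and Rps2 lower, where 3.38% of all genes were called. Without vehicle A replicate 2 the median was 0.63. The summed share was 4.35, 4.44, 4.90 and 3.04% at day 7. Granulocyte and monocyte markers summed to 6422 to 12393 CPM at LSK day 7 and 1067 to 3611 in vehicle A, with 3 of the 6 genes called higher. Their part in the members' values was not tested.

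LSK day 3 called 0 of 80 members (0% of all genes called, 0 with an unadjusted p below 0.05, 0 with DESeq2), with a median of -0.07 that ran from -0.20 without vehicle A replicate 3 to 0.16 without vehicle A replicate 2. Its sign also turned without day 3 replicate 3 (0.10), and it lay between -0.17 and -0.12 without any one of the other 4 libraries. Macrophage markers varied there from 818 to 5096 CPM, against 56.4 to 2053 in vehicle A. LSK day 7 against day 3 also called 0 (0.00743% of all genes called, 5 members with an unadjusted p below 0.05 beside 15.8% of expressed genes, 0 with DESeq2), with a median of 0.49. That median was 0.32 without day 3 replicate 3. Without day 7 replicate 4 it was 0.64, and Rpl13 and Rps2 were called lower (2.95% of all genes called). In Rps27l, LSK day 7 gave 190.2, 200.0, 231.4 and 129.7 CPM and vehicle A 143.4, 180.8, 145.9 and 113.0 CPM.

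The responses of the 2 cell types to tamoxifen were compared directly. At day 3 the difference between MEP and LSK responses had a median of -0.03 (-0.29 to 0.12 when 1 library was left out, with both signs) and 0 calls by edgeR (0.0529% of all genes called, 0 members with an unadjusted p below 0.05, 0 with DESeq2). At day 7 the median was -0.92, and 77 of 80 members had a more negative value in MEP cells, beside medians of 0.22 over all genes tested and -0.31 over expressed genes. Without LSK day 7 replicate 3 the members' median was -0.58, and without LSK day 7 replicate 4 it was -1.06. Again 0 were called by edgeR (0.458% of all genes), while DESeq2 called 4. An unadjusted p below 0.05 was found for 44 members, beside 11.2% of all genes and 25.1% of expressed genes. The lowest adjusted p was that of Rps27l (difference -1.69 ± 0.43, SE, adjusted p = 0.0681, edgeR), followed among the members named here by Rps21 (-1.56 ± 0.44, adjusted p = 0.115). The number of calls was 8 among expressed genes only and 15 with a GC offset, and 2 without LSK day 7 replicate 4 or LSK vehicle A replicate 2.

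Across libraries the members moved together. After subtraction of group means, the median correlation of a pair of the 77 expressed members was 0.92 over the 16 LSK libraries and 0.89 over the 16 MEP libraries. In each cell type 72 of 77 members had a correlation above 0.8 with the mean of the others. Expressed genes outside the set had a median correlation of 0.52 and 0.36 with that mean. These values describe libraries that share their scaling factor, so a shift of a whole library moves all members. The lowest were Rpl13 (-0.09) and Rps2 (0.20) in LSK cells and Rps2 (0.12) and Rps27l (0.42) in MEP cells. The LSK values include tamoxifen day 7 replicate 4, which stood apart from its group in both genes, and were not computed without it. The genes outside the set most like the members' mean were Ndufa7, Hbxip, Psmb1, Higd2a and Atp5g2 in LSK cells, at 0.979 to 0.973, and 2410015M20Rik, Fau, Rpl36al, Ftl1 and Eif3k in MEP cells, at 0.977 to 0.965. Fau encodes the small subunit protein Rps30, and Rpl36al a large subunit paralog.

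**Figure D5:**
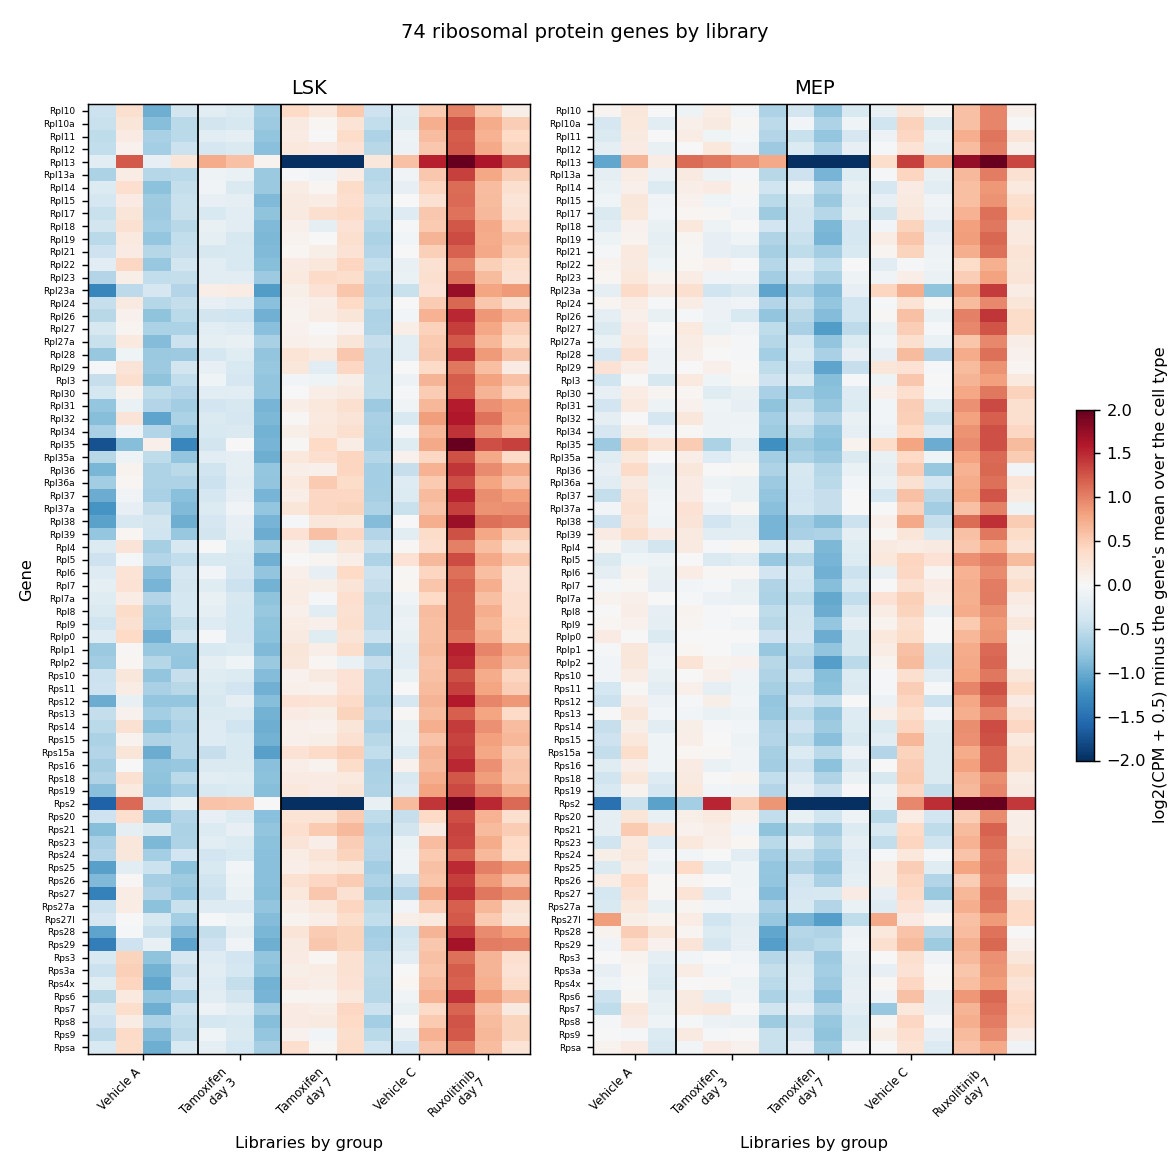
Level of 74 of the expressed genes (rows) in each library (columns, by group) as log2(CPM + 0.5) minus the gene's mean over the cell type, LSK at the left and MEP at the right. Columns shade as wholes, and Rpl13 and Rps2 are the rows that break from the others at tamoxifen day 7.

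Without subtraction of group means, Rpl13 and Rps2 correlated with each other at 0.94 in LSK and 0.89 in MEP cells. Each was closer to genes outside the set. For Rpl13 these were Fam125a, Hibadh and Eif4ebp1 in LSK cells (0.995 to 0.994) and Sqstm1, Lsm4 and Spr in MEP cells (0.996 to 0.994). Of the other genes compared, 294 in LSK and 231 in MEP cells were above 0.95 with Rpl13. Without the tamoxifen day 7 libraries, Rpl13 and Rps2 correlated at 0.94 over 12 LSK and 0.82 over 13 MEP libraries, and 350 and 16 genes were above 0.95 with Rpl13. These values are a description of libraries that share groups and scaling.

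The lists of related genes gave the following counts at MEP day 7. Of 75 mitochondrial ribosomal protein genes tested, which serve a separate ribosome in mitochondria, 32 were lower and 0 higher, with a median log2 change of -0.74. Mrpl54 changed by -3.85 (adjusted p = 2.38e-09, edgeR). Of 33 translation factors 10 were lower and 0 higher (median -0.60), with the start codon factor Eif1 at -3.39 (adjusted p = 4.85e-08). Of 10 other 5' TOP mRNAs 4 were lower, and of 16 TOP and mTORC1 regulators 2 were lower, among them Eif4ebp1, which represses cap-dependent translation when mTORC1 is inactive, at -3.26 (adjusted p = 8.26e-07). Of 9 chaperones and erythroid partners 3 were lower, with the autophagy receptor Sqstm1 at -2.76 (adjusted p = 5.13e-07), and of 6 extra ribosomal proteins 1 was lower. The share of all expressed genes called lower was 20.7%, and that of the cytosolic members was 3 of 80.

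Under ruxolitinib in MEP cells the same lists had 5 of 75, 2 of 33, 1 of 10, 1 of 16, 1 of 9 and 2 of 6 genes higher, in the same order, beside 7.36% of expressed genes. The translation factors and the chaperones each had 1 gene lower, beside 6.71%. Between MEP and LSK cells in vehicle A, 60 of 75 mitochondrial ribosomal protein genes, 25 of 33 translation factors, 8 of 10 other 5' TOP mRNAs, 3 of 16 regulators, 4 of 9 chaperones and partners and 4 of 6 extra ribosomal proteins were higher in MEP cells, beside 24.7% of expressed genes. The regulators had 1 gene lower.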

How the data were processed

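The deposited table gives unnormalized counts for each gene symbol in 32 libraries. Per the labels' protocols, sorted cells went into TriZOL, the Direct-Zol kit was used for RNA and the Takara HT-Seq kit for paired-end libraries. STAR, featureCounts and mm10 are named in the submitters' processing notes. Versions, annotation and strand setting are not given there, so overlapping and antisense genes can hold each other's reads. The members, lists and tests were chosen with earlier results of these data known. The named members are a panel (P stalk, 5S RNP, Diamond-Blackfan, 5q minus, Rps6, Rpsa, Rps27a, Rpl13a, Rps3, Rpl22 and paralogs), up to 5 called rises and 5 called falls per comparison with a mean logCPM of at least 2, and members least like the others. Some members are not reported here by name.

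Groups came from titles and characteristics. Replicates differed by more than sampling noise (chi-square per degree of freedom at least 12.7). Each comparison used edgeR 4.0.16 (R 4.3.3), the two-sided quasi-likelihood test, TMM factors, a filterByExpr minimum of 10 counts, and p-values adjusted by Benjamini-Hochberg (0.05) over 26930 LSK, 25274 MEP or 28378 joint genes. CPM use TMM-scaled totals, within a cell type or, between cell types, over all libraries. LSK and MEP libraries of 1 animal were treated as independent. Alternatives were RLE factors, TMM factors without the members, DESeq2 1.42.0, no filter, expressed genes only, a GC offset, compared groups only, a replicate block, limma 3.58.1 voom with an animal block, pooled vehicles and leaving out each library. Same-numbered libraries deviated together in every pair only for MEP day 7 against day 3 (correlation 0.13 to 0.20), where the block also called 2 members. The script was tested on simulated data. Gene positions are those of GENCODE M21 and promoters those of RefSeq for GRCm38.p6. Rps3a was matched through its synonym Rps3a1.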

Additional observations from a re-analysis of the deposited data

Results flagged for a closer look

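In groups of 4 libraries, 11 of 102 values of 33 named members and of the summed share lay farther from the others than Dixon's 95% limit allows. Chance gives about 1 in 20 for a single value. The members moved together across libraries, so these values are not independent checks and their number cannot be set against that rate.

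Replicate 4 of LSK tamoxifen day 7 was such a library for Rpl13 (754 CPM, the others 50.9 to 107), for Rps2 (650 CPM, the others 146 to 164) and for Rps19 (627 CPM, the others 1066 to 1118). It was high in the first 2 genes and low in Rps19.

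Replicate 2 of LSK vehicle A was high in Rplp1 (316 CPM, the others 184 to 186), Rpl11 (284 CPM, the others 161 to 177), Rps19 (1086 CPM, the others 528 to 590) and Rpl13a (395 CPM, the others 231 to 245).

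Replicate 4 of MEP tamoxifen day 3 was low in Rplp0 (2384 CPM, the others 3158 to 3186), Rps3 (1051 CPM, the others 1502 to 1549) and Rpl7a (332 CPM, the others 474 to 502). In Rpl10l, replicate 2 of that group was high at 1.60 CPM, the others lying at 0.430 to 0.474 CPM.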

How the results depend on the processing

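Counts of called members in MEP cells under ruxolitinib were 19 in a fit of the compared groups only, 75 with DESeq2, 18 among expressed genes only, 73 with RLE factors and 71 with pooled vehicles, and 4 to 65 when 1 library was left out (4 without ruxolitinib replicate 2, 65 without ruxolitinib replicate 3). RLE factors shifted the median of all genes there from -1.07 to -0.93. At MEP day 7 they were 6 with DESeq2, 5 with RLE factors, 21 with pooled vehicles and 5 with voom, and 2 to 3 without 1 library. At MEP day 3 they were 2 among expressed genes only, 0 with the replicate block, pooled vehicles or voom, and 0 to 1 without 1 library. MEP day 7 against day 3 gave 4 with the GC offset. In LSK cells, ruxolitinib gave 30 with pooled vehicles. LSK day 7 gave 1 each with the GC offset (Rps19), the replicate block (Rpl13), voom (Rpl13) and pooled vehicles (Rps2), and 0 to 3 without 1 library. LSK day 7 against day 3 gave 1 each with the GC offset, the replicate block and voom, and 0 to 2 without 1 library. The difference between cell types at day 7 gave 4 with DESeq2, 8 among expressed genes only, 15 with the GC offset, 1 with the replicate block, 1 with RLE factors and 0 to 2 without 1 library. MEP against LSK in vehicle A gave 51 to 75 without 1 library. In vehicle C it gave 0 with compared groups only, 29 with DESeq2, 18 among expressed genes only, 25 with the GC offset, 3 without a filter, 34 with the replicate block, 18 with RLE factors, 25 with voom and 1 to 5 without 1 library. The replicate numbers do not show that libraries are paired except for MEP day 7 against day 3; with the block, vehicle A gave 68 and MEP ruxolitinib 41. The causes were not tested.

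On raw library totals the members' share was 3.24% at LSK day 3, 4.18% at LSK day 7, 5.94% in MEP ruxolitinib, 5.49% at MEP day 7 and 4.63% in MEP vehicle C, against TMM-scaled values of 2.40, 3.23, 11.8, 3.94 and 6.86%. The shift from batch A to batch C in animals of the same number was 0.45 and 0.42 in LSK and 0.13, 0.27 and -0.05 in MEP cells on TMM-scaled totals (animals 12, 18, then 12, 32 and 33), and 0.20, 0.23, -0.039, -0.036 and -0.65 on raw totals. For single genes, 80 values lost and 82 gained a call, and 8 changed sign with no call in either. Rpl13 between MEP and LSK in vehicle A was -0.041 with DESeq2, -0.15 among expressed genes only, -0.041 with RLE factors, and -0.40 to 0.51 without 1 library. Rps2 there was -0.73 to 0.30, the latter without LSK replicate 2.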
